A study of Homo sapiens
Mus musculus with 16 samples.

Results

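Nab-paclitaxel given on top of phenelzine was examined in human breast tumours grown in mice, by setting 4 combination tumours against 4 phenelzine tumours. These 8 libraries were chosen by their sample titles, from 16 in the series. Each library is labelled as a tumour sample of its own, and whether each came from a separate mouse is not stated. P-values therefore measure only spread between samples, and for single genes that spread was estimated over all 16 libraries. In all of them the tumour grew from MDA-MB-231, an established line of human breast cancer of the triple-negative type. The cells, 2 M in 50 µl, were injected at the mammary fat pad of nude mice of the Balb/c strain, and tumours were excised on day 50. Combination mice received nab-paclitaxel at 30 mg/kg on days 15, 22 and 29 together with phenelzine at 40 mg/kg daily from day 15. Phenelzine mice received phenelzine at the same daily dose, labelled as given after 15 days, and no taxane. The remaining 8 libraries were 4 from mice given nab-paclitaxel alone and 4 from mice given vehicle. They entered the fit through the count filter, the scaling and the estimate of spread. They also served to test whether the taxane effect differed without phenelzine. Drugs and vehicle were given intraperitoneally. No age of the mice is stated. The last taxane dose preceded excision by 21 days, while phenelzine was given daily. The model holds 1 tumour line, and nude hosts lack a thymus and therefore mature T cells.

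Paclitaxel binds β-tubulin and stabilises microtubules, which holds dividing cells in mitosis; the nab form carries the drug on albumin. Phenelzine irreversibly inhibits the monoamine oxidases and also inhibits the histone demethylase LSD1 (KDM1A), an enzyme related to them. A tumour xenograft contains human cancer cells and mouse stroma, vessels and immune cells, and RNA from both is sequenced together. Counts of human genes were taken to represent the tumour cells and counts of mouse genes the host tissue.

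The question this comparison addresses is what the taxane added in animals that already received phenelzine. The deposited values are whole-number counts per Ensembl gene in 2 matrices, 1 per species. Human totals were 11.1 to 28.8 M counts in combination libraries and 30.2 to 34.5 M in phenelzine libraries. Mouse totals were 6.60 to 27.4 M in combination libraries and 3.46 to 6.18 M in phenelzine libraries. The sum of both ran from 35.4 to 41.0 M over the 8 libraries. The files carry no gene symbols, and 0 of the IDs matched the reference table at hand, whose Ensembl column is empty. Genes are therefore described by level, direction and library, with 2 IDs that rose and 2 that fell; gene functions, tumour-line markers and host cell markers could not be looked up.

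The host contributed a larger share of the counts in combination tumours than in phenelzine tumours. Mouse counts made up 71.2%, 47.4%, 55.9% and 18.6% of all counts in combination tumours 1 to 4, against 9.97%, 15.2%, 9.25% and 16.1% in phenelzine tumours 1 to 4. Every combination tumour lay above every phenelzine tumour, although combination 4 exceeded phenelzine 4 by little. The mean was 48.3% ± 22.1 in combination tumours and 12.6% ± 3.54 in phenelzine tumours (SD, n = 4 each). The difference of 35.6 percentage points gave an exact permutation p of 0.0286, two-sided, which is the smallest p that 4 against 4 tumours allow. Without any 1 of the phenelzine tumours the exact permutation p was 0.0571, at differences of 34.5 to 36.8 points. The groups still did not overlap, but another split of these tumours then gave a difference at least as large. Without any 1 of the combination tumours the exact permutation p was 0.0286. As 0.0571 was reached whichever phenelzine tumour was omitted, it says little about any single one. In bulk tissue, fewer tumour cells, more host cells and a change in RNA per cell of either kind cannot be told apart. Wilson intervals of 95% were at most 0.0323 points wide and cover counting error only.

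**Figure D1:**
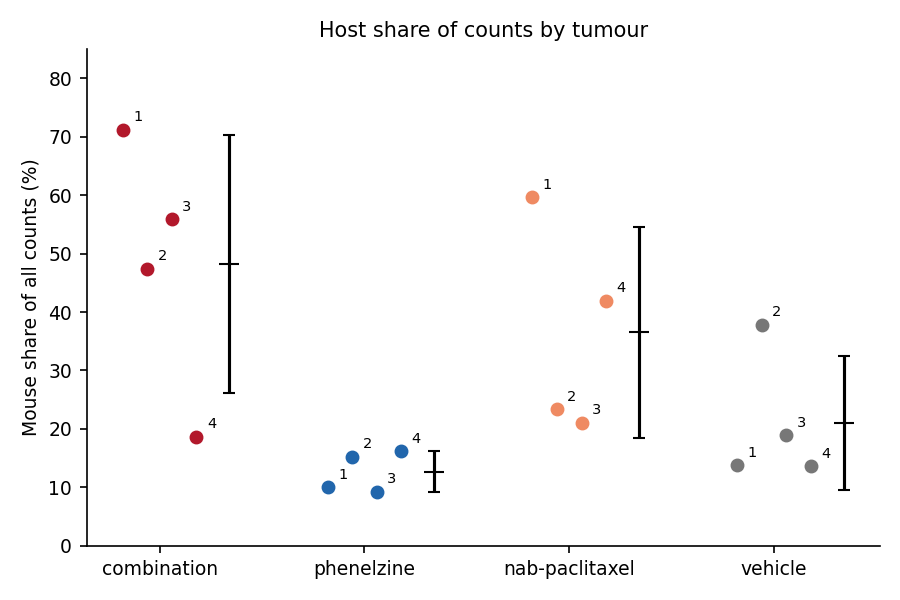
Mouse share of all counts (percent) in each tumour, with replicate numbers beside the points and the mean ± SD of 4 tumours to the right of each group. Combination tumours sit between 18.6% and 71.2% and phenelzine tumours between 9.25% and 16.1%; nab-paclitaxel and vehicle tumours are shown for scale.

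Combination tumours were less alike than phenelzine tumours, and the tumour genes and host genes ordered them differently. On the first principal component of the human genes, which held 59.8% of the variance among the 8 libraries, combination 1 and 3 scored 88.3 and 85.7. Combination 4 scored -5.1 and combination 2 scored -29.9, against -38.7 to -30.5 for the 4 phenelzine tumours. Combination 2 thus lay just outside the phenelzine tumours on that axis. On the first component of the mouse genes, with 46.3% of the variance, combination 1, 2 and 3 scored 62.3, 75.6 and 41.5. Combination 4 scored -12.3, next to phenelzine 2 at -13.0, while the phenelzine tumours ran from -71.4 to -13.0. Combination 2 therefore had the highest host score and a tumour score next to the phenelzine group. Combination 4 lay at the edge of the phenelzine group on the host axis and between that group and combination 1 and 3 on the tumour axis. The second human component held 11.3% of the variance and set apart combination 2 and 4, which scored 46.4 and 24.7. Combination 1 and 3 scored -0.3 and -8.0 on it, and phenelzine tumours -23.5 to -7.0.

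**Figure D2:**
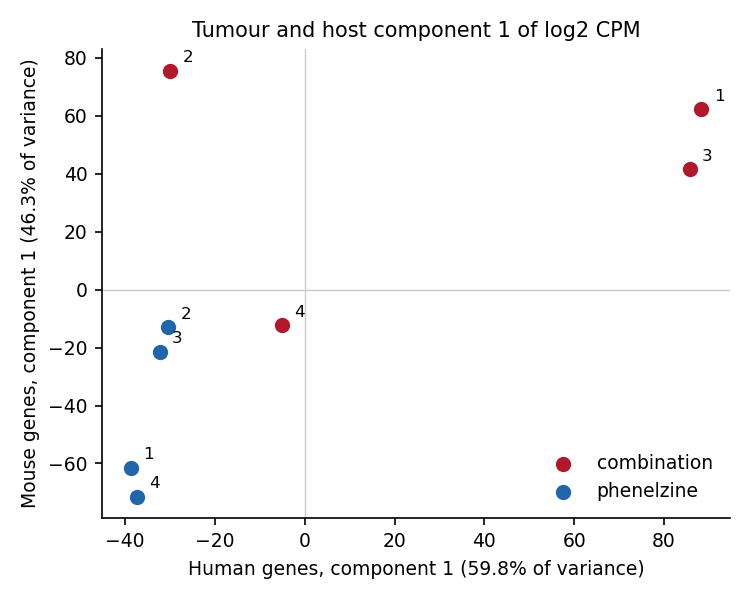
Score of each of the 8 libraries on the first principal component of human genes (horizontal axis) and of mouse genes (vertical axis), from log2 CPM, with replicate numbers beside the points. Combination 1 and 3 stand apart on both axes, combination 2 on the host axis alone, and combination 4 lies nearest to the phenelzine tumours on the host axis.

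The spread within groups was wider in combination tumours than in phenelzine tumours, mainly for human genes. Among 11590 human genes with a mean of at least 5 CPM (counts scaled to library size) over the 8 libraries, the median SD of log2 CPM was 0.31 within the combination group and 0.18 within the phenelzine group. The combination SD was the higher in 76.6% of these genes. Among 12092 mouse genes the medians were 0.27 in combination tumours and 0.25 in phenelzine tumours, and the combination SD was the higher in 55.3%. For the same human genes the median SD was 0.25 in nab-paclitaxel tumours and 0.17 in vehicle tumours. For the mouse genes it was 0.23 and 0.37, so vehicle tumours had the widest host spread. Human totals were smaller in combination libraries, and the part of depth in these SDs was not tested. Correlations of human log2 CPM between libraries were 0.878 to 0.971 within the combination group and 0.973 to 0.979 within the phenelzine group, over 14582 genes, as a description.

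Among human genes, more rose than fell in combination tumours against phenelzine tumours. The division of reads between species is not given, and the part of mouse reads counted as human was not tested. Of 18131 human genes tested, 412 passed an adjusted p of 0.05 (edgeR quasi-likelihood test, Benjamini-Hochberg adjustment), or 2.27% of those tested. Of these, 299 rose (1.65%) and 113 fell (0.623%). The median log2 fold change was 2.76 among those that rose and -0.84 among those that fell, and both medians were the same with the 7 genes at 0 in every phenelzine library and the 2 at 0 in every combination library set to a floor of 3 counts per library. The median over all tested genes was -0.002. Changes of more than 4-fold were seen in 188 of the genes that rose and in 21 of those that fell. At an unadjusted p under 0.05 there were 4162 human genes, or 23%, of which 2427 were higher (13.4%) and 1735 lower (9.57%) in combination tumours.

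The called genes were divided by their level in phenelzine tumours. That level is the denominator of the fold change, and a gene scarce there passes the count filter only through groups where it is higher, so the make-up of these classes is partly set by the choice of genes. By their phenelzine mean, 134 of the 299 lay below 1 CPM, 104 between 1 and 10 CPM, 53 between 10 and 100 CPM and 8 at 100 CPM or more. Their median log2 fold changes were 4.88, 2.08, 1.06 and 0.67 in these classes; for the scarcest class it was 4.67 with genes at 0 set to the floor. Of all 18131 tested genes, 3975, 4115, 7580 and 2461 fell into these classes, with median log2 fold changes of 0.51, 0.12, -0.06 and -0.18. A small fold is harder to detect in a scarce gene, so the fold sizes of called genes are not comparable between levels. Of the 113 that fell, 3 had a phenelzine mean under 1 CPM, 19 a mean of 1 to 10, 58 a mean of 10 to 100 and 33 a mean of at least 100 CPM. Their median log2 fold changes were -4.65, -2.13, -0.72 and -0.63, and -4.50 in the scarcest class with genes at 0 set to the floor. The phenelzine mean is the lower side of a rise and the higher side of a fall. Rises and falls within a class are therefore not like sets, and why the overall medians differ was not tested. In the 8 abundant genes that rose, the log2 fold change ran from 0.38 to 1.18, and in the 33 that fell from -1.60 to -0.37. The genes that rose took 1.72%, 0.548%, 1.72% and 0.731% of human counts in combination tumours 1 to 4 and 0.342% to 0.383% in phenelzine tumours. The genes that fell took 0.515% to 0.611% in combination tumours and 0.882% to 1.01% in phenelzine tumours.

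ENSG00000140807 and ENSG00000142494 had the largest rises among the 190 genes that rose with a mean of at least 5 CPM and no overlap between groups. ENSG00000140807 stood at 47.7, 0.539, 89.4 and 3.38 CPM in combination tumours 1 to 4 and was listed at 0 in all 4 phenelzine tumours. Combination 1 and 3 were high and combination 2 and 4 low, yet all 4 lay above the phenelzine tumours. The combination mean of 35.3 ± 42.0 CPM (SD, n = 4) was at least 382-fold higher than the phenelzine group, taking 3 counts per library as the floor there. Without combination 3 this bound was 187-fold, and without combination 1 it was 337-fold. The edgeR adjusted p was 0.0468. The same gene was at 79.3, 0.375, 1.70 and 39.7 CPM in nab-paclitaxel tumours 1 to 4, against 0 in vehicle tumours 1 to 3 and 0.12 CPM in vehicle 4. Nab-paclitaxel tumours 1 and 4 were thus the high ones of that group. The interaction, the difference between the taxane effect with and without phenelzine, had an unadjusted p of 0.571 and an edgeR adjusted p of 0.999968 for this gene.

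ENSG00000142494 followed the same order of libraries at lower levels. Its values were 9.24, 0.392, 21.7 and 0.534 CPM in combination tumours 1 to 4, and 0 in all 4 phenelzine tumours. Combination 2 and 4 rested on counts of 8 and 15. The combination mean of 7.95 ± 10.0 CPM (SD, n = 4) was at least 86.2-fold higher than the phenelzine group with the same floor, with an edgeR adjusted p of 0.0428. Without combination 3 the bound was 36.7-fold. In nab-paclitaxel tumours 1 to 4 it was at 24.6, 0.531, 1.34 and 5.40 CPM, against 0 to 0.03 CPM in vehicle tumours. The groups did not overlap for either gene, in either pair.

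ENSG00000196406 had the largest fall among 94 human genes that met the same conditions. It was at 0, 0.049, 0.727 and 0.427 CPM in combination tumours 1 to 4 and at 8.89, 10.0, 1.62 and 5.2 CPM in phenelzine tumours 1 to 4. Phenelzine 3 was the lowest of its group and still above every combination tumour. The log2 fold change was -4.31 (SE 0.942, edgeR adjusted p = 0.0394). With nab-paclitaxel alone the values were 0.297, 3.88, 4.01 and 0.675 CPM, against 3.74, 1.76, 2.20 and 3.51 CPM with vehicle, so that those groups overlapped. The log2 fold change of nab-paclitaxel over vehicle was -0.32 (edgeR adjusted p = 0.843). The interaction was -3.99 on the log2 scale (SE 1.20), with an unadjusted p of 0.00472 and an edgeR adjusted p of 0.999968, so a difference between the taxane effects was not shown.

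**Figure D3:**
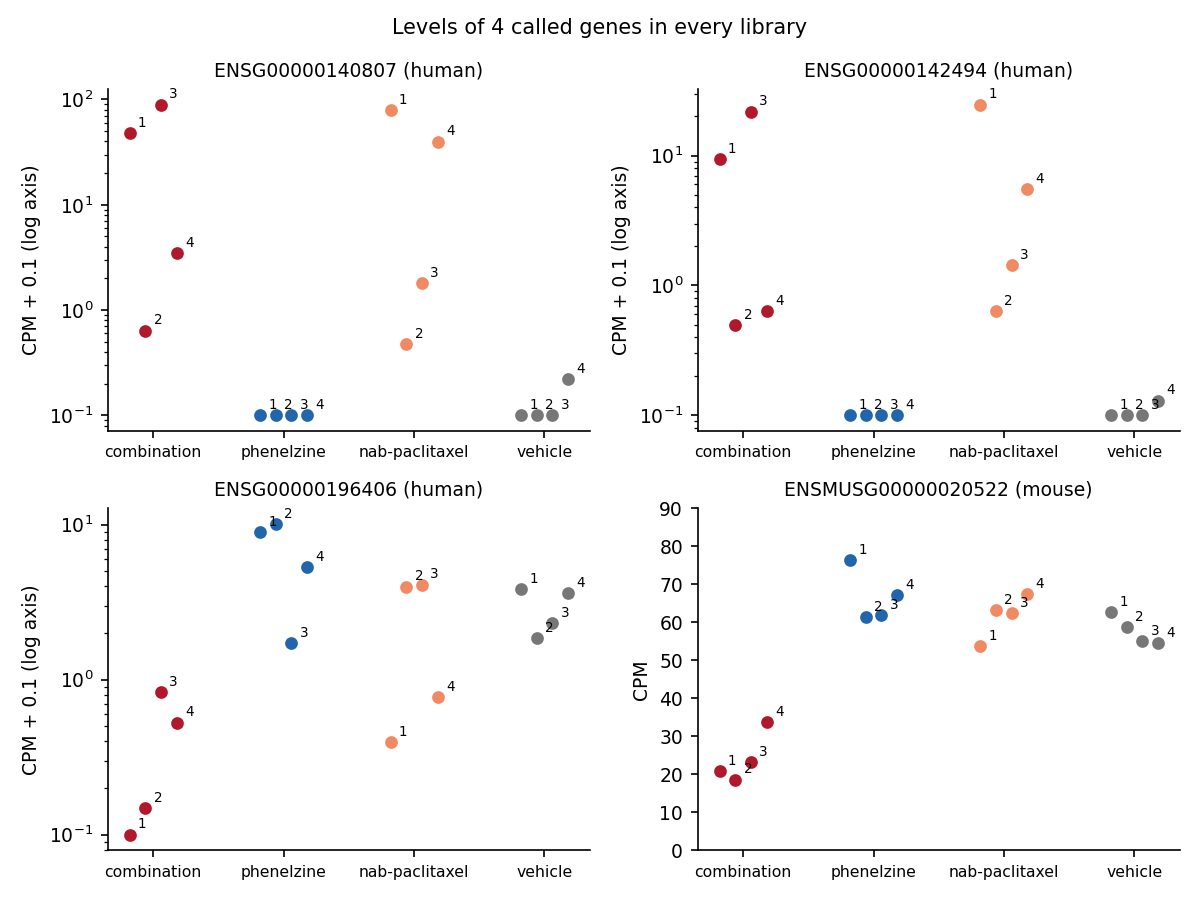
CPM plus 0.1 of 3 human genes (log axes) and CPM of 1 mouse gene (linear axis) in every library, with replicate numbers beside the points. The human genes that rose are high in combination 1 and 3 and in nab-paclitaxel 1 and 4, and the mouse gene is low in all 4 combination tumours.

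The called genes were read in each combination tumour. The median log2 ratio of the 299 to the phenelzine mean, with 0.5 CPM added, was 2.66, 0.72, 2.36 and 1.08 in combination tumours 1 to 4. More than 2-fold rises numbered 257, 79, 264 and 173 of the 299 in these tumours. Such rises made up 10.9%, 1.82%, 12.1% and 2.41% of all tested human genes. Combination 1 held the highest value of its group in 156 of the 299 (52.2%), combination 3 in 117 (39.1%), and combination 2 held the lowest in 206 (68.9%). Over all tested human genes these shares were 24.2%, 26.7% and 30.4%. For the 113 genes that fell, the medians were -0.91, -0.80, -0.84 and -0.73 in combination tumours 1 to 4. Falls of more than 2-fold numbered 46, 39, 48 and 36 of the 113, and made up 9.52%, 3.56%, 9.02% and 2.13% of all tested human genes. The values of the 299 and the 113 describe genes the contrast selected. Falls of this size pass the test mainly where the 4 tumours are alike, so their evenness is part of the selection. All 4 combination tumours lay above all 4 phenelzine tumours in 121 of 134, 93 of 104, 45 of 53 and 8 of 8 of the genes that rose, by rising level class. They lay below them in 106 of the 113 that fell. The test itself favours such genes. Over all human genes tested, 1970 had no overlap between the groups, or 10.9%, of which 1002 were higher (5.53%) and 968 lower (5.34%) in combination tumours.

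The same 412 genes were read in 8 libraries the contrast did not use, those of nab-paclitaxel alone and vehicle. These libraries entered the fit through the count filter, the scaling and the estimate of spread. A gene can pass the filter through nab-paclitaxel libraries where it is high, so agreement there is partly set by the choice of genes. With only the combination and phenelzine libraries in the fit, 16742 human genes were tested. The median log2 ratio of the 299 to the vehicle mean was 2.08, 0.58, 0.93 and 1.65 in nab-paclitaxel tumours 1 to 4, and -0.08 to 0.03 in the vehicle tumours. The 299 genes were above the vehicle mean in 98.0%, 91.0%, 95.7% and 99.0% of cases in nab-paclitaxel tumours 1 to 4, against 48.0% to 49.6% of all tested genes. For the 113 genes that fell the medians were -0.65, -0.22, -0.24 and -0.44 in nab-paclitaxel tumours 1 to 4. They were below the vehicle mean in 92.9%, 72.6%, 86.7% and 93.8%, against 50.3% to 52.0% of all tested genes. These shares of all tested genes mix both directions. The fitted fold changes of the 2 pairs had the same sign in 75.4% of all tested human genes. That share was 98.7% for the 299 and 92.9% for the 113. Nab-paclitaxel 1 and 4 showed the larger rises of their group and had mouse shares of 59.7% and 41.9%. Combination 2, with a share of 47.4%, had the smallest rise of its group. Past an adjusted p of 0.05 in nab-paclitaxel against vehicle were 15 of the 299 and 6 of the 113, in the same direction, of 30 genes called there (0.165% of those tested). At an unadjusted p under 0.05 in that pair, in the same direction, were 258 of the 299 and 61 of the 113; 20.3% of all tested genes reached that p there in either direction. The fitted median effect of the 299 was a log2 fold change of 2.76 for combination over phenelzine and 1.97 for nab-paclitaxel over vehicle, and that of the 113 was -0.84 and -0.40; the genes were chosen on the first value of each pair, so these differences are a description.

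**Figure D4:**
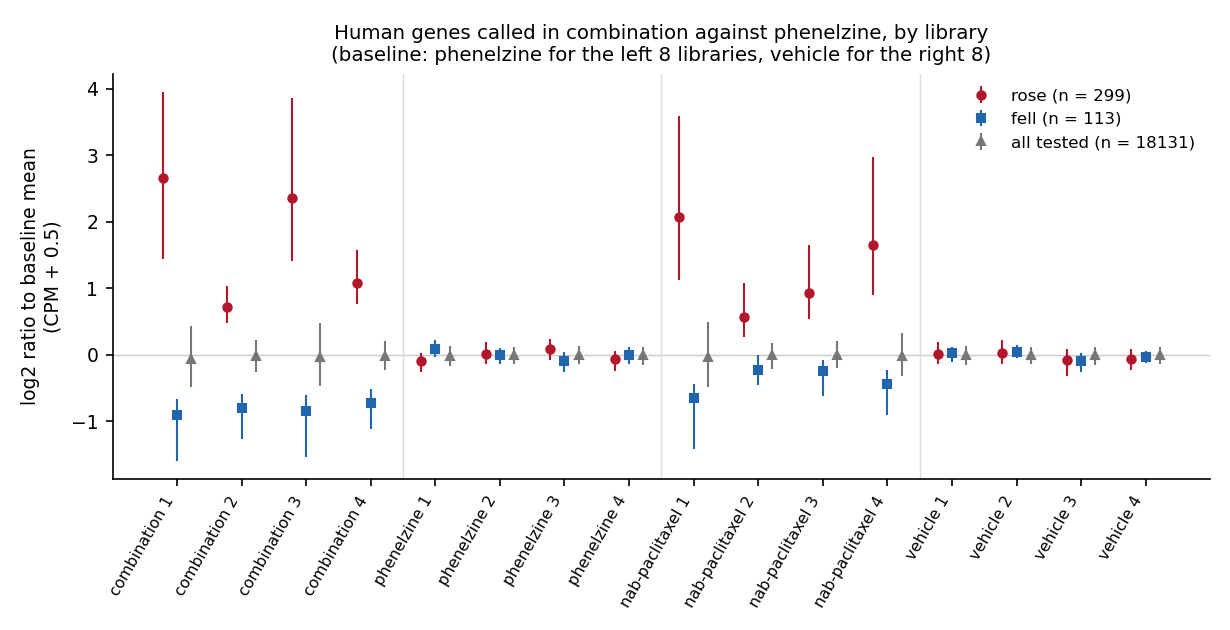
Median and quartiles of the log2 ratio (CPM plus 0.5) of each library to its baseline mean, for the 299 human genes that rose, the 113 that fell and all 18131 tested. Combination 1 and 3 and nab-paclitaxel 1 and 4 have the largest medians among the genes that rose, while medians of the genes that fell lie between -0.91 and -0.73 in combination tumours.

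The number of human genes called depended on single tumours. It was 1487 without combination 2 and 834 without combination 4, the 2 combination tumours with the smaller rises. It was 10 without combination 1, 12 without combination 3, 7 without phenelzine 1 or phenelzine 4, 15 without phenelzine 2 and 79 without phenelzine 3. Of the 412 genes, 406 were among the 1487 and 388 among the 834. ENSG00000140807 stayed past the threshold when combination 2 (edgeR adjusted p = 0.0188) or combination 4 (0.0365) was omitted, and omitting any of the other 6 tumours ended its call, at up to 0.127. The fitted log2 fold change, which depends on the prior count, was 11.88 to 12.89 in those 6 fits. For ENSG00000142494 the same 2 omissions kept the call (edgeR adjusted p = 0.0171 and 0.0297) and the same 6 ended it, at up to 0.124, with the fitted log2 fold change between 9.5 and 10.74. ENSG00000196406 stayed past it when combination 2 (edgeR adjusted p = 0.0314), combination 4 (0.0424) or phenelzine 3 (0.0493) was omitted, and each of the other 5 omissions ended its call, at up to 0.116, with the log2 fold change between -5.03 and -4.00. With voom, adjusted p-values of the 3 genes were 0.265, 0.141 and 0.160. When the mouse share entered the model, 3 human genes passed; this share differs between the groups, and its part in the calls cannot be told apart from the treatment. With only these 8 libraries in the fit 1 human gene passed. The main fit shares 1 spread per gene over 16 libraries, and the median human SD was 0.31 in combination tumours and 0.17 in vehicle tumours. The part of this unequal spread in the calls was not tested.

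**Figure D5:**
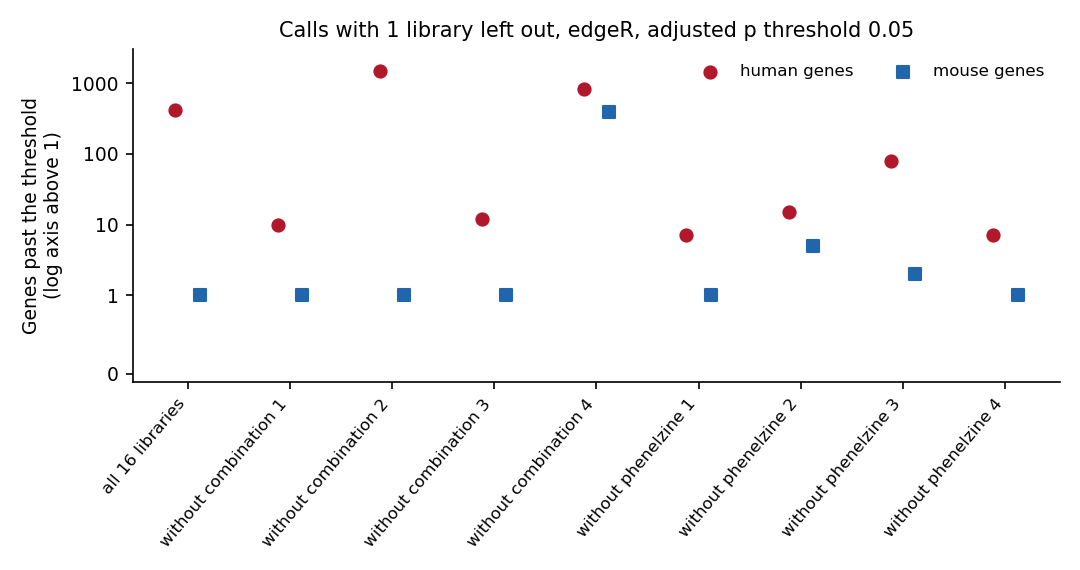
Number of human and mouse genes past the threshold with all 16 libraries and with 1 of the 8 compared libraries left out (log axis above 1). The human count ranges from 7 to 1487, and the mouse count from 1 to 389, with 389 reached without combination 4.

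Genes called with 1 combination tumour left out were then read in that tumour against the vehicle mean, which the contrast did not use. Of the 1159 genes that rose without combination 2, 59.4% were above the vehicle mean in combination 2, with a median log2 ratio of 0.10, against 48.4% of all genes tested. Of the 328 that fell without it, 79.6% were below, with a median of -0.25, against 51.2% of all genes. Of the 614 that rose without combination 4, 91.4% were above the vehicle mean in combination 4, with a median of 0.62, against 47.7% of all genes. Of the 220 that fell without it, 90.5% were below, with a median of -0.33, against 52.1%. Combination 4 thus carried the direction of the other tumours at smaller size, and combination 2 carried it weakly for genes that rose and more often for genes that fell.

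A fit without combination 1 and 3, chosen after the data were seen, called 14 human genes, of which 8 were among the 412. The 8 that rose in it had median log2 ratios to the phenelzine mean of 1.45, 1.93, 1.62 and 1.57 in combination tumours 1 to 4. The 6 that fell had medians of -0.66, -1.76, -0.33 and -1.36. Combination 2 and 4 and the phenelzine tumours selected these 14 genes, so the ratios are a description.

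In the host, 1 gene of 15074 tested passed the threshold, or 0.00663%, and it fell. ENSMUSG00000020522 was at 20.8, 18.6, 23.2 and 33.7 CPM in combination tumours 1 to 4, against 76.4, 61.4, 61.9 and 67.1 CPM in phenelzine tumours 1 to 4. All combination tumours were below all phenelzine tumours, and combination 4 was the highest of its group. The mean was 24.1 ± 6.67 CPM in combination tumours and 66.7 ± 6.95 CPM in phenelzine tumours (SD, n = 4 each). On the log2 scale the fold change was -1.48, with SE 0.162 and an edgeR adjusted p of 0.00307. Unlike the 3 human genes, it kept its call without any 1 of the 8 tumours (edgeR adjusted p = 7.48e-05 to 0.0283), at log2 fold changes of -1.68 to -1.37. With nab-paclitaxel alone it was at 53.6, 63.2, 62.4 and 67.4 CPM, against 62.6, 58.8, 55.1 and 54.5 CPM with vehicle, and those groups overlapped. The log2 fold change of nab-paclitaxel over vehicle was 0.09 (edgeR adjusted p = 0.848). The interaction was -1.57 (log2), with SE 0.226, an edgeR unadjusted p of 5.14e-06 and an edgeR adjusted p of 0.0775. A difference between the taxane effects with and without phenelzine was thus not shown for it at the adjusted threshold. All combination values lay below those of every nab-paclitaxel and vehicle tumour. The gene was chosen on combination against phenelzine, which is part of the interaction. The call was lost without combination 1 and 3 (edgeR adjusted p = 0.418), with the mouse share as a covariate (0.554) and in a fit of only these 8 libraries (0.0914), at log2 fold changes of -1.37, -1.17 and -1.48. Over all alternatives run for it the adjusted p ran from 2.77e-16 to 0.638.

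Beyond that gene, many host genes differed at an unadjusted level. An unadjusted p under 0.05 was found for 2726 mouse genes, or 18.1% of those tested, of which 1378 were higher (9.14%) and 1348 lower (8.94%) in combination tumours. Apart from ENSMUSG00000020522, these did not pass the adjusted threshold. The 1378 and 1348 genes were selected on this contrast in these same libraries. Their direction, size and share of counts in the 2 groups are therefore partly set by the choice and are a description. The median log2 ratio of the 1378 to the phenelzine mean was 0.90, 1.07, 0.82 and 0.39 in combination tumours 1 to 4, and that of the 1348 was -1.07, -0.97, -0.93 and -0.40. Combination 4 was the lowest of its group in 867 of the 1378 (62.9%), against 31.6% of all tested mouse genes. It was the highest in 970 of the 1348 (72.0%), against 27.7% of all tested mouse genes. The groups did not overlap in 1693 mouse genes, or 11.2%, with 844 higher (5.60%) and 849 lower (5.63%). The 1378 genes took 15.5%, 15.3%, 11.2% and 8.52% of mouse counts in combination tumours 1 to 4, against 5.19% to 7.52% in phenelzine tumours. In nab-paclitaxel tumours 1 to 4 their median log2 ratio to the vehicle mean was 0.42, 0.08, -0.01 and 0.07, and that of the 1348 was -0.65, -0.11, -0.11 and -0.40; nab-paclitaxel against vehicle had 1799 mouse genes (11.9%) at an unadjusted p under 0.05 and 0 past the threshold.

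The number of host genes called in edgeR changed most when combination 4 was left out. Without it, 389 mouse genes passed, 107 higher and 282 lower, while without any 1 of the other 7 tumours 1 to 5 passed (5 without phenelzine 2, 2 without phenelzine 3). With all libraries kept, DESeq2 called 563 mouse genes and voom 391. Combination 4 had a mouse share of 18.6% and the smallest mouse total of its group, 6.60 M counts. Read in combination 4 itself, the 107 genes were above the vehicle mean in 57.0% of cases, with a median log2 ratio of 0.06, against 43.2% of all genes tested. The 282 genes were below it in 56.7%, with a median of -0.06, against 56.8% of all genes. The host genes that separated the other 3 combination tumours from phenelzine tumours thus lay close to the vehicle level in combination 4. They were chosen against phenelzine tumours but read against vehicle tumours, whose host spread was the widest (median SD 0.37). Whether combination 4 lacked the host change therefore cannot be read from these values. Phenelzine libraries had 3.46 to 6.18 M mouse counts; with every mouse library thinned to the smallest total, 1 gene passed, which was ENSMUSG00000020522 (edgeR adjusted p = 0.000504).

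Whether the taxane acted differently with phenelzine than without was tested as the interaction. No gene passed in edgeR in either species. At an unadjusted p under 0.05 there were 544 human genes, or 3.0% of those tested, and 1228 mouse genes, or 8.15%. With DESeq2 the interaction passed for 11 human genes and 18 mouse genes, and with voom and quality weights for 0 human genes and 1 mouse gene. With 1 library left out, edgeR gave 0 human genes except for 1 gene without nab-paclitaxel 4. For mouse genes it gave 4 without phenelzine 2, 1 without phenelzine 3, 1 without combination 4 and 0 otherwise. A difference between the effect of nab-paclitaxel with and without phenelzine was therefore not shown for any gene by the edgeR test with all 16 libraries.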

How the data were processed

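Tumour RNA was prepared with a TruSeq mRNA paired-end kit, per the labels' protocols. The counts per gene were deposited by the authors in 2 matrices; the submitters' processing notes list Trimmomatic 0.36, HISAT2 2.04, Picard, StringTie, edgeR and the builds hg38 and mm10. Not given in the sources used here: tool order, division of reads between species, annotation, strand and duplicate handling. The deposited counts are not plain tallies at the low end: the values 1, 2, 3 and 4 occur 14483, 24107, 24309 and 10534 times in the human matrix. Inside a group compared, 12 human genes and 19 mouse genes have 0 counts in 1 tumour and 1000 or more in another; 10 and 13 of them were tested and 0 were called. 1 untested human gene has 742269 counts in phenelzine 1, 2.15% of that library, and 0 in the other 15 libraries.

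Each matrix was fitted on its own with edgeR 4.0.16 (R 4.3.3): TMM factors, the default filter with a minimum count of 10, 1 mean per group over 16 libraries, which left 12 residual degrees of freedom, and quasi-likelihood F tests. P-values were adjusted by Benjamini-Hochberg over all genes tested, with a threshold of 0.05. CPM values are TMM-scaled. SE is the fold change over the root of F. Counts as deposited were also tested with DESeq2 1.42.0 and limma 3.58.1 (voom). A check of the fit on simulated counts gave every group the same spread per gene, unlike the human data here. It therefore cannot show how the fit handles unequal spread, and its outcome is not reported here. Libraries of a group differed beyond counting noise (chi-square per degree of freedom at least 39.1 in human and 13.1 in mouse genes). The spread between samples includes library preparation.

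The printed genes are those with the largest absolute log2 fold change past the threshold, averaging 5 CPM or more in the higher group, with no overlap between groups. For each species these are at most the 2 largest rises and the largest fall. The human gene with the next largest fall, at a log2 fold change of -3.56, is thus not printed. Its log2 fold change for nab-paclitaxel over vehicle was -2.95 (edgeR adjusted p = 0.073). The 56 gene lists drawn up by symbol, the tumour-line and cell type markers and the comparison with mouse genes of the same name were not used here, because no ID could be matched to a symbol. The comparison, lists and rules were chosen with earlier results of these data known.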

Additional observations from a re-analysis of the deposited data

Results flagged for a closer look

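The human total of phenelzine 4, 30.2 M counts, lay far below the other 3 phenelzine libraries (33.9 to 34.5 M); the gap was 0.854 of the group's range, above Dixon's 95% limit for 4 samples. It was 1 of 18 groups of 4 values examined, and chance flags about 1 group in 20. Without phenelzine 4, 7 human genes and 1 mouse gene passed the threshold.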

How the results depend on the processing

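The human count of 412 stayed within 1.5 times under RLE normalization (399), library size without TMM (363), no filter (312), a stricter filter with a minimum count of 50 (402) and thinning of every library to the smallest total of its matrix (280). It was 1832 with DESeq2, 126 with voom, 97 with the replicate number as a block, 46 without the 4 libraries that stood apart (combination 1 and 3, nab-paclitaxel 1 and 4), 14 without combination 1 and 3, 3 with the mouse share as a covariate and 1 in a fit of the 8 libraries; leaving out 1 library gave 7 to 1487. The mouse count of 1 was 563 with DESeq2, 391 with voom, 2 with no filter, 2 in the fit of the 8 libraries (0 shared with the main call), 0 with the mouse share as a covariate, and 0 without combination 1 and 3 or without the 4 libraries; leaving out 1 library gave 1 to 389. The interaction count of 0 was 11 for human genes with DESeq2 and 0 to 1 with 1 library left out; for mouse genes it was 18 with DESeq2, 1 with voom and 0 to 4 with 1 library left out. The difference in mouse share was 28.0 to 45.5 points with 1 library left out (exact permutation p of 0.0286 without a combination tumour and 0.0571 without a phenelzine tumour). No printed gene changed direction in any of these fits. The cause of these changes was not tested. The fits without several libraries, the thinned fit and the fit without TMM were chosen after the data were seen.

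Same-numbered combination and phenelzine libraries share only a number: their deviations correlated at -0.098 to 0.061 in human and -0.20 to 0.24 in mouse genes, and 1 of 4 combination libraries correlated best with its own number in each species. The replicate block gave 97 human genes and 1 mouse gene, and 0 for either interaction.

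Smallest human and mouse totals of 11.1 and 3.46 M counts limit what can be read for scarce genes.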

Other observations

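Some genes were listed at 0 in every library of 1 group. In the human matrix 26 genes had a count in every combination library and 0 in every phenelzine library, and 81 the reverse; with at least 10 counts in each library these numbers were 1 and 2. Combination libraries have the smaller human totals. Of the human genes at 0 in every phenelzine library, 52, 8, 94 and 15 reached 10 counts in combination tumours 1 to 4, more in combination 1 and 3 than in 2 and 4. Of those at 0 in every combination library, 23, 29, 22 and 93 reached 10 counts in phenelzine tumours 1 to 4. In the mouse matrix 185 genes had a count in every combination library and 0 in every phenelzine library, and 0 genes the reverse; with at least 10 counts in each library both numbers were 0. Mouse totals were larger in every combination library than in every phenelzine library, and the part of depth in these numbers was not tested.

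More of the host calls were lower than higher in combination tumours with both other tests, in different proportions. Of the 391 mouse genes called by voom with quality weights 63 were higher and 328 lower in combination tumours, and of the 563 called by DESeq2 295 were lower and the others higher.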
